A study of Mus musculus with 9 samples.

Results

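Among the cells of EP-ZFTA-RELA ependymomas that carried transcripts of the fusion allele, a small set had no transcript of Igf2, H19 or Dlk1 and no mitotic signature. These fusion-allele-positive, Igf2-, H19- and Dlk1-negative cells are described here. They were chosen by measured values. A barcode of a tumor library was a member if it held at least 1 unique molecular identifier (UMI, 1 captured transcript) of luciferase (Luc), the internal ribosome entry site (IRES) or the ZFTA-RELA fusion sequence. It also had to hold 0 UMIs of Igf2, H19 and Dlk1, and fewer than 3 detected genes of 8 mitotic genes and of 8 neuroblast genes. The rule found 181 members among 35482 kept tumor barcodes, of 64617 kept in the whole series, with 26, 18, 27, 31 and 79 members in tumors 1 to 5.

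Tumor parenchyma of 5 NestinCreERT2;Fus1 mice, in which a tamoxifen-inducible Cre under Nestin control switches on the fusion, and brain of 4 NestinCreERT2;TdT mice, labelled by a red reporter allele (TdT), were profiled by 5′ single-cell RNA-seq. All mice were 6 to 8 weeks old. Tissue was dissociated, spun through Percoll, and stained with DAPI and with an antibody to the red cell antigen Ter119 before sorting. Both genotypes carry the Cre allele. The labels name the reporter for the control mice alone, while the study also describes red fluorescence in tumor mice, so the reporter is not taken to separate them. Each library was taken as 1 mouse from its label. A legend of the study counts fewer tumor mice than there are tumor libraries, and all libraries were used.

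ZFTA-RELA joins a zinc finger protein to the NF-kB subunit RELA and drives a supratentorial ependymoma of childhood whose cells resemble radial glia, the neural stem cells of the fetal brain. Igf2 encodes a fetal growth factor, H19 is the noncoding RNA next to it, and Dlk1 encodes a transmembrane ligand related to the Delta family. All 3 are imprinted, which means that 1 parental copy is silent, and they are mostly shut off in the brain after birth.

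Members held few transcripts of the allele per barcode. Of the 181 members, 170 (93.9%) held exactly 1 UMI of the 3 allele features and 11 held 2 or more, so the set rested on 194 UMIs in all. Luc alone marked 148 members, IRES alone 14 and the fusion sequence alone 14, and the other 5 held Luc with one of these. Among non-cycling cells with at least 3 UMIs of Igf2, H19 and Dlk1, called Igf2-H19-Dlk1 cells here (n = 6276), 48.8% held a single allele UMI. In cycling fusion-allele cells (n = 1845), with 3 or more mitotic genes, the share was 43.3%. These pooled shares follow tumor 4, which gave 4594 of the Igf2-H19-Dlk1 cells. By tumor, 24 of 26, 16 of 18, 27 of 27, 26 of 31 and 77 of 79 members held a single allele UMI, against 28 of 32, 562 of 863, 55 of 75, 1847 of 4594 and 569 of 712 Igf2-H19-Dlk1 cells. The gap was thus small in tumor 1 and wide in tumor 4. The deposited control libraries held 0 UMIs of Luc and of the fusion sequence over 29135 kept barcodes, which allows at most 0.105 to 0.177 CPM (UMIs per 1000000 UMIs of the library or class). They held 29 IRES UMIs, and 27 control barcodes met the same rule, each through IRES. Members were shallower than the other allele-positive classes, and as a level the order turned. The 3 allele features averaged 543 CPM over tumors in members, 344 CPM in Igf2-H19-Dlk1 cells and 239 CPM in cycling cells. Each of these classes had to hold an allele UMI, so both measures are a description.

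As a share of all allele-positive barcodes, members differed widely between tumors. They made up 33.8%, 1.40%, 18.0%, 0.529% and 3.80% of the 77, 1289, 150, 5865 and 2081 such barcodes in tumors 1 to 5. Tumors 1 and 3 stood above the others. Those were the tumors with the fewest allele-positive barcodes, and also those with little Igf2, H19 and Dlk1 RNA outside tumor cells. Barcodes with a microglia signature, which should not express these genes, held 110 CPM of the 3 genes in tumor 1 and 175 CPM in tumor 3, against 1110, 1950 and 844 CPM in tumors 2, 4 and 5. No UMI of the 3 genes was found in 83.6% and 77.3% of these microglia barcodes in tumors 1 and 3. In tumors 2, 4 and 5 the shares were 12%, 5.44% and 26.0%. The parts of this free RNA and of the number of allele-positive barcodes in the share of members were not tested. The threshold of 3 UMIs for Igf2-H19-Dlk1 cells was not set against this free RNA either. Of that class, 0%, 18.8%, 14.7%, 20.9% and 9.27% had a microglia signature in tumors 1 to 5. The part of free RNA in that class was not tested. As a share of all kept barcodes, members took 0.914%, 0.302%, 0.403%, 0.310% and 0.791%, a mean of 0.544% ± 0.287 (SD, n = 5 tumors). By that share tumor 3 was below tumor 5.

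Members were shallow. Their median depth was 2062.5, 1614.5, 968, 3934 and 1513 UMIs in tumors 1 to 5, against 3744, 4979, 2953, 5261 and 2438.5 UMIs in Igf2-H19-Dlk1 cells. Barcodes that met every other condition but held no allele UMI, called transgene-negative barcodes here (n = 7892), had 1626, 1674, 771, 3317 and 1485.5 UMIs. In each tumor the members' median was thus below that of Igf2-H19-Dlk1 cells, and it was above that of transgene-negative barcodes in 4 of 5. The median mitochondrial share of members was 10.9%, 11.2%, 9.06%, 2.63% and 4.00%. Igf2-H19-Dlk1 cells had 9.08%, 7.82%, 5.85%, 2.52% and 4.17%, so the share was higher in members in 4 of 5 tumors, and its part in the differences between these classes was not tested. Transgene-negative barcodes had 10.6%, 10.1%, 8.18%, 2.39% and 3.75%. A doublet caller marked 11 of 181 members (6.08%), and 2 members shared their barcode sequence with another tumor library. The 280 cells just outside the rule, with exactly 1 UMI of Igf2, H19 and Dlk1, had a median of 1774.5 UMIs against 1740 in members. Of them 35.7% had a radial glia signature and 26.1% a microglia signature, against 37.6% and 28.7% of members, with tumors pooled in unequal numbers. By tumor the shares were less alike. The radial glia signature was met by 50%, 12.5%, 50%, 60% and 23.8% of the cells just outside in tumors 1 to 5, against 38.5%, 33.3%, 37.0%, 71.0% and 25.3% of members. For microglia it was 0%, 35%, 25%, 33.8% and 20.6%, against 23.1%, 44.4%, 22.2%, 32.3% and 27.8%. The 0 in tumor 1 is of 10 cells.

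The radial glia label held for only part of the members. A signature was counted where at least 3 of 8 marker genes had a UMI. The radial glia panel (Sox2, Fabp7, Slc1a3, Nes, Vim, Hes5, Pax6, Ptprz1) was met by 38.5%, 33.3%, 37.0%, 71.0% and 25.3% of members in tumors 1 to 5, a mean of 41.0% ± 17.5 (SD, n = 5). The rank of tumor 4 varied with the barcodes kept. It was also highest with the 5000 deepest barcodes, at 75% of 8 members against 42.9% to 58.8%. After random thinning of each barcode to 1500 UMIs it had 38.5%, against 21.7% or less in the other tumors. Of the 96 barcodes that met the rule in tumor 4 after thinning, 19 were members at full depth. The other 77 held Igf2, H19 or Dlk1 UMIs at full depth. With all deposited barcodes the share of tumor 4 was 27.8%, below the 34.4%, 33.3% and 37.0% of tumors 1 to 3, and tumor 5 had 8.75%. The main share of members was below that of Igf2-H19-Dlk1 cells in all 5 tumors, and members minus Igf2-H19-Dlk1 cells averaged -30.7 ± 9.06 percentage points. It was higher than in transgene-negative barcodes in 5 of 5 tumors, by 23.5 ± 11.5 points. By median depth members were shallower than Igf2-H19-Dlk1 cells in each tumor and deeper than transgene-negative barcodes in most. The part of depth in both differences was not tested. The astrocyte panel (Aqp4, Gja1, Aldh1l1, Slc1a2, Slc4a4, S100b, Gfap, Agt) was met by 57.7%, 27.8%, 22.2%, 45.2% and 32.9% of members.

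Markers of other cell types were frequent among members, and some as frequent in the other classes. The microglia panel, with C1qa, C1qb, C1qc, Csf1r, Cx3cr1, P2ry12 and Tmem119 among its genes, was met by 23.1%, 44.4%, 22.2%, 32.3% and 27.8% of members, a mean of 30.0% ± 9.04. This was above Igf2-H19-Dlk1 cells in 5 of 5 tumors, by 17.2 ± 7.67 points, and above transgene-negative barcodes in 2 of 5. Neuron markers were met by 53.8%, 33.3%, 11.1%, 0% and 10.1% of members, close to the 50.4%, 33.6%, 16.6%, 0% and 8.40% of transgene-negative barcodes of the same tumors. In Igf2-H19-Dlk1 cells the neuron shares were 56.2%, 47.4%, 29.3%, 8.29% and 8.85%, above members in 4 of 5 tumors. The erythroid panel was met by 92.6% of members in tumor 3 and by 0% to 2.53% in the other tumors, and 84.3% of the transgene-negative barcodes, 89.3% of the Igf2-H19-Dlk1 cells and 9 of 9 cycling cells of tumor 3 met it as well. Of 15 panels, 5 were met by no member: ependymal, neutrophil, T or NK cell, fibroblast and choroid plexus. A count of 0 of 181 allows a share of up to 1.66% (3 counts of the total, as for every share of 0 here), and this limit and the intervals given here cover counting error only.

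**Figure D1:**
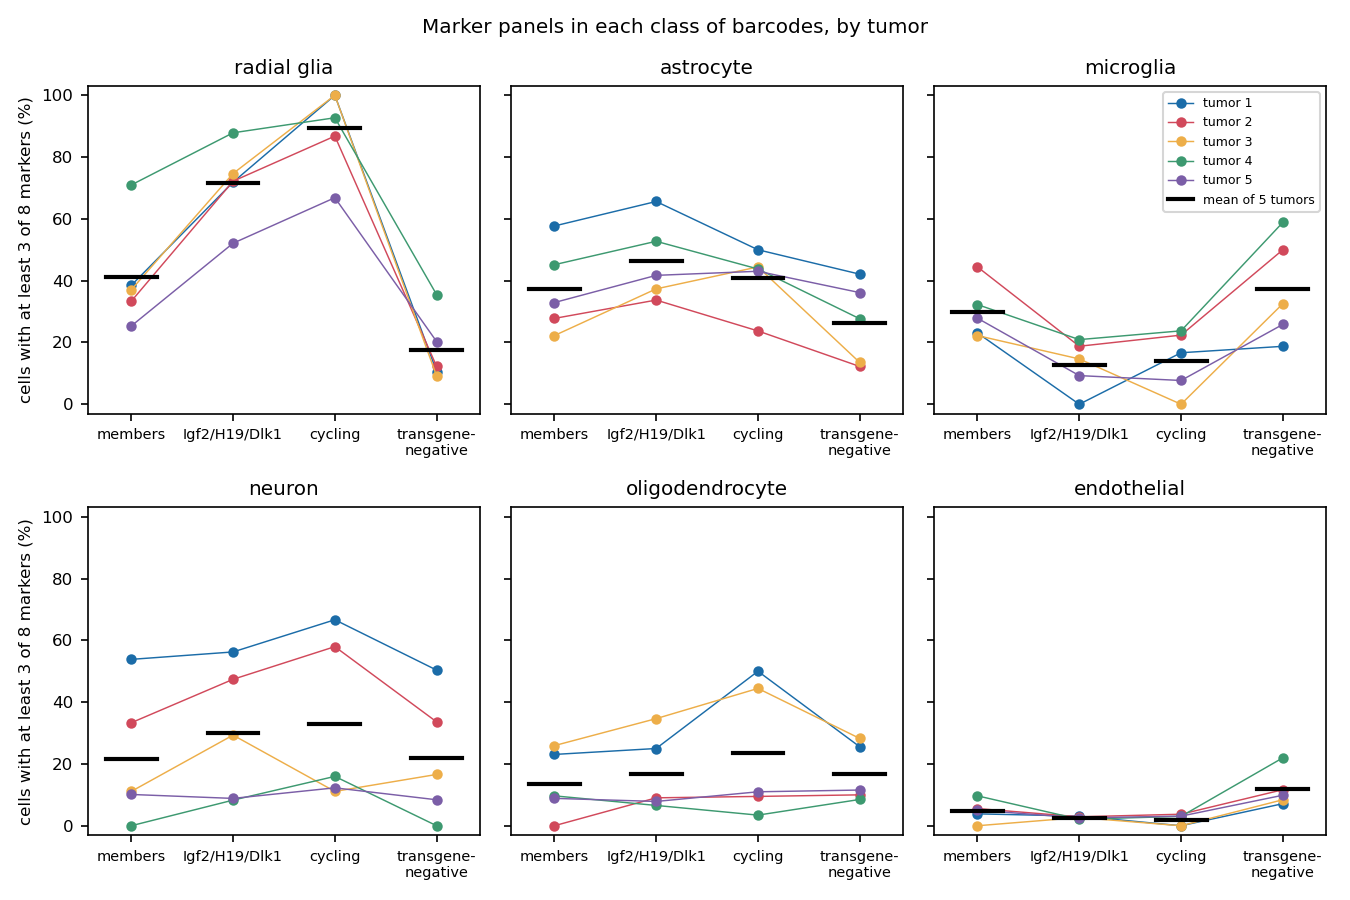
Share of cells with at least 3 of 8 markers of a panel (y axis, %) in members, Igf2-H19-Dlk1 cells, cycling fusion-allele cells and transgene-negative barcodes; each point is 1 tumor, lines join the classes of a tumor, and black bars are means of 5 tumors. Members lay between Igf2-H19-Dlk1 cells and transgene-negative barcodes for the radial glia panel in every tumor, and at 22.2% to 44.4% for the microglia panel.

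When each member was put in 1 group by its panels, 58 (32.0%) met glial or progenitor panels only, 28 (15.5%) immune panels only, 22 (12.2%) neuron or oligodendrocyte panels only and 5 (2.76%) vascular panels only. Panels of several groups were met by 46 members (25.4%), and no panel by 22 (12.2%). The glial or progenitor group took 54.8% of Igf2-H19-Dlk1 cells and 11.8% of transgene-negative barcodes, pooled over tumors that gave unequal numbers of each class. Within tumors 1 to 5 it took 26.9%, 22.2%, 25.9%, 48.4% and 31.6% of members. The shares were 34.4%, 27.2%, 30.7%, 61.4% and 49.0% of Igf2-H19-Dlk1 cells and 13.4%, 3.33%, 8.83%, 13.5% and 24.8% of transgene-negative barcodes, so members stood between both in each tumor. Immune panels only were met by 3.85%, 33.3%, 18.5%, 9.68% and 16.5% of members, by 0% to 4.40% of Igf2-H19-Dlk1 cells and by 6.66%, 32.2%, 20.6%, 37.6% and 14.6% of transgene-negative barcodes. In tumor 4 members were well below the latter. Both the radial glia and the astrocyte panel were met by 39 members (21.5%), against 43.6% of Igf2-H19-Dlk1 cells. The part of the members' lower depth in these shares was not tested.

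**Figure D2:**
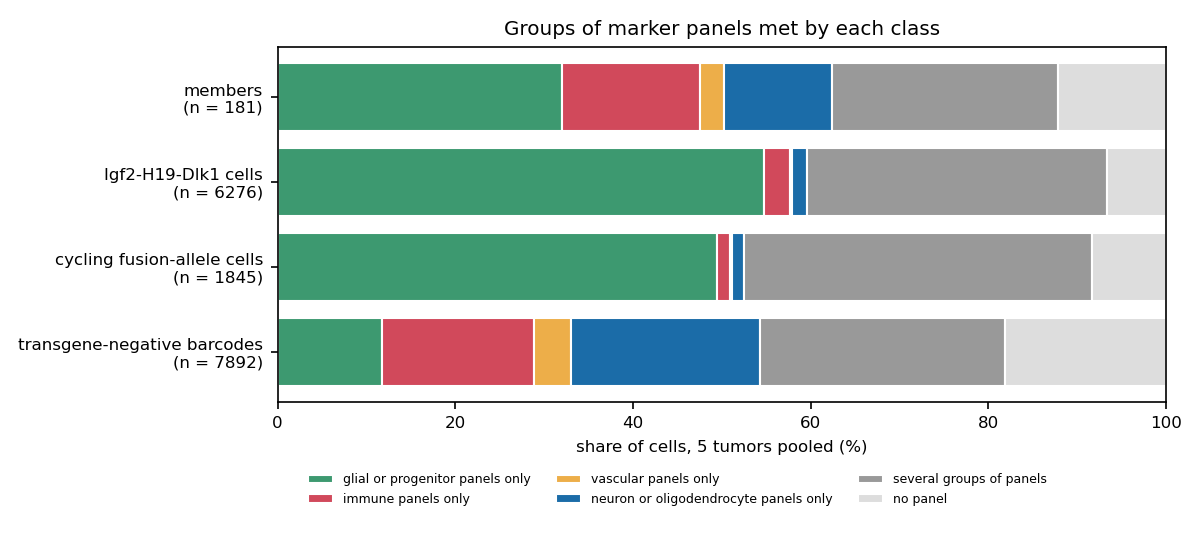
Share of cells (x axis, %, 5 tumors pooled) in 6 exclusive groups of marker panels, 1 bar for each class with its number of cells. The glial or progenitor segment is 32.0% of members, 54.8% of Igf2-H19-Dlk1 cells and 11.8% of transgene-negative barcodes.

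The 11 members with 2 or more allele UMIs were mostly glial. Of these, 7 (63.6%) met the radial glia panel, 10 (90.9%) any glial or progenitor panel and 0 the microglia panel, where 0 of 11 allows a share of up to 27.3%. Of the 170 members with 1 allele UMI, 61 (35.9%) met the radial glia panel, 87 (51.2%) any glial or progenitor panel and 52 (30.6%) the microglia panel. Median depths were 2263 and 1607 UMIs. The 11 cells came from tumors 1, 2, 4 and 5, with 2, 2, 5 and 2 cells, and no test was made on so few. In tumor 4 the radial glia panel went the other way, met by 3 of 5 members with 2 or more allele UMIs and by 19 of 26 with 1. None of the 5 met the microglia panel, against 10 of the 26.

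Allele transcripts were found in a larger share of radial glia barcodes than of microglia barcodes. The rule uses these UMIs, so the shares are a description with no test. Among barcodes without UMIs of Igf2, H19 and Dlk1 that met the radial glia panel and no immune, neuron or oligodendrocyte panel, 3.77%, 20.0%, 3.20%, 31.1% and 8.33% held an allele UMI in tumors 1 to 5. Among those with the microglia panel and not the radial glia panel, 1.08%, 4.02%, 0.436%, 5.71% and 7.05% did. Microglia arise outside the neural lineage in which Nestin is active. Median depths were 2053.5, 2181.5, 919, 3541 and 1770 UMIs against 1899, 1666.5, 869, 3287 and 1571 UMIs. In tumor 5 both shares were close, with Clopper-Pearson intervals (95%) of 4.38% to 14.1% and 4.16% to 11.1%. Intervals also overlapped in tumor 1 (1.04% to 9.38% against 0.295% to 2.74%) and tumor 2 (5.73% to 43.7% against 1.63% to 8.11%). In each of these, 4 radial glia barcodes held an allele UMI. The intervals did not overlap in tumor 3 (7 of 219 against 6 of 1376 barcodes) and tumor 4 (14 of 45 against 4 of 70). They cover counting error of barcodes within 1 mouse only and are no test between the panels. Barcodes with the neuron panel and not the radial glia panel held an allele UMI in 0.926%, 4.46%, 0.281% and 9.72% of cases in tumors 1, 2, 3 and 5, and in tumor 5 this was above the radial glia share. Oligodendrocyte barcodes had 0% to 4.55% in these tumors and endothelial barcodes 0% to 4.23%. In tumor 4 no such neuron barcode was found, and 1 of 7 oligodendrocyte and 2 of 22 endothelial barcodes held an allele UMI. The shares of 0, 0 of 33 oligodendrocyte barcodes in tumor 2 and 0 of 343 endothelial barcodes in tumor 3, allow up to 9.09% and 0.875%. As a level, the allele reached 20.8, 122, 18.5, 109 and 45.4 CPM in radial glia barcodes and 5.05, 18.2, 2.35, 15.3 and 33.4 CPM in microglia barcodes. The 3000 deposited barcodes with fewest UMIs of each library, with medians of 559 to 649 UMIs, held 14.3, 96.1, 17.2, 252 and 91.8 CPM of the allele. In tumors 4 and 5 this was above the radial glia barcodes. The 3000 barcodes were not filtered on Igf2, H19 and Dlk1, while the radial glia and microglia barcodes held no UMI of them. These levels are thus unlike in selection, and none is taken as the level of free RNA. The part of free RNA in single members was not tested.

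**Figure D3:**
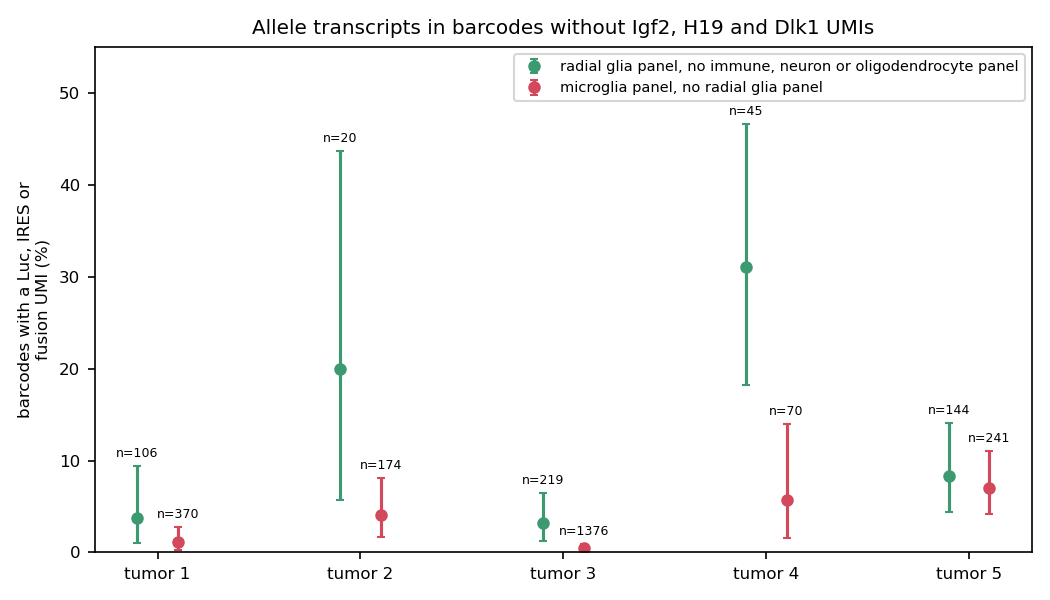
Share of barcodes with a Luc, IRES or fusion UMI (y axis, %) among barcodes without Igf2, H19 and Dlk1 UMIs, for the radial glia and the microglia panel in each tumor; error bars are 95% Clopper-Pearson intervals and n is the number of barcodes. The radial glia share runs from 3.20% to 31.1% and the microglia share from 0.436% to 7.05%.

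Sox2 and Fabp7, the markers given for these cells, were detected in fewer than all members. Sox2 encodes a transcription factor of neural stem cells, and Fabp7 the brain lipid-binding protein of radial glia. One or both were detected in 89 of 181 members (49.2%), and in 26.9%, 50.0%, 40.7%, 80.6% and 46.8% of members in tumors 1 to 5. With tumors pooled in unequal numbers, the share was 89.2% in Igf2-H19-Dlk1 cells, 23.4% in transgene-negative barcodes and 28.0% in microglia barcodes, which should lack both genes. Within tumors 1 to 5 it was 78.1%, 80.4%, 72.0%, 94.8% and 66.3% in Igf2-H19-Dlk1 cells. Transgene-negative barcodes had 16.1%, 27.5%, 23.2%, 61.0% and 32.9%. Members were shallower than Igf2-H19-Dlk1 cells, and the part of depth in this share was not tested. By tumor the microglia barcodes had 9.11%, 25.4%, 16.7%, 56.1% and 23.8%, with median depths of 1929.5, 1899, 891, 3500 and 1746.5 UMIs. Microglia barcodes that met the radial glia panel, which holds Sox2 and Fabp7, had been left out of this class and not of members, which lowers its share, so the gap is a description only.

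The level of Sox2 in members was 122, 200, 102, 109 and 204 CPM in tumors 1 to 5, and 408, 218, 277, 233 and 212 CPM in Igf2-H19-Dlk1 cells. Members were the lower class in each tumor, by little in tumors 2 and 5. The difference in Sox2 was -0.69 on the log2 scale and did not pass the test described below (adjusted p = 0.163, edgeR quasi-likelihood test). Fabp7 stood at 34.8, 266, 5085, 1028 and 143 CPM in members. The high value of tumor 3 came from 1 cell, which held 174 of the 199 Fabp7 UMIs, and without it tumor 3 had 736 CPM. Igf2-H19-Dlk1 cells had 84.4, 700.1, 942, 1307 and 427 CPM of Fabp7, and its difference was 0.29 on the log2 scale (adjusted p = 0.765, edgeR).

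The next comparison asked what separates members from Igf2-H19-Dlk1 cells besides the genes of the rule. UMIs were summed per tumor and class, which weighs each cell by its depth, and fitted with the tumor as a block. Tumors 1, 3, 4 and 5 entered, and tumor 2 was left out because it had fewer than 20 members. Of 2527 genes tested, 198 were higher in members (7.84% of genes tested) and 92 lower (3.64%) at an adjusted p under 0.05 (edgeR quasi-likelihood test, Benjamini-Hochberg), and the median difference of all genes was -0.03 on the log2 scale. Without a filter on low counts the balance turned, with 333 higher and 607 lower of 21066 genes. Leaving out tumor 4 gave 187 calls in all and leaving out tumor 5 gave 172, against 290. The genes tested are not in the rule, but the same cells were divided by it, so the p-values measure the difference against the spread between tumors. They are not evidence that is independent of the choice of members.

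Genes of microglia led the genes higher in members. Cyba (ENSMUSG00000006519), a subunit of the phagocyte NADPH oxidase, stood at 279, 204, 803 and 511 CPM in members of tumors 1, 3, 4 and 5. Its level in Igf2-H19-Dlk1 cells was 28.1, 47.5, 79.0 and 49.7 CPM, with no overlap between the classes. The difference was 3.35 ± 0.26 (SE) on the log2 scale (adjusted p = 2.88e-06, edgeR). Fcrls, a microglial Fc receptor-like gene, was higher by 3.32 and Trem2, a lipid-sensing receptor of microglia, by 3.20. Of the 8 microglia genes, 6 were tested and 6 were higher, with a median difference of 3.31. C1qa, a subunit of complement C1q, was at 2544, 1380, 3244 and 2004 CPM in members, and at 21.1, 409, 433 and 190 CPM in Igf2-H19-Dlk1 cells. The microglia panel is made of the same 8 microglia genes. It was met by 22.2% to 32.3% of members in the tumors fitted, against 0% to 20.9% of Igf2-H19-Dlk1 cells. Both measures use the same genes and cells, so the share adds no support to the gene levels.

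Astrocyte genes were higher in members as well. Of the 7 tested of 8, 6 were higher and none lower, with a median difference of 1.44. Slc1a2, the main glutamate transporter of astrocytes, was at 2491, 2223, 635 and 1138 CPM in members of tumors 1, 3, 4 and 5 and at 1252, 675, 350 and 439 CPM in Igf2-H19-Dlk1 cells. Members were the higher class in each tumor, and the difference was 1.44 ± 0.22 (SE) on the log2 scale (adjusted p = 0.000480, edgeR). Slc4a4, a bicarbonate cotransporter, was higher by 1.84, Gja1 (connexin 43) by 1.51, Aqp4 (the water channel of astrocyte endfeet) by 1.33, Gfap (the astrocyte filament protein) by 1.31 and Agt (angiotensinogen) by 1.92. S100b, the seventh, differed by 0.39 and did not pass (adjusted p = 0.491). The share of cells that met the astrocyte panel went the other way. Members minus Igf2-H19-Dlk1 cells averaged -9.07 ± 3.53 percentage points and was below 0 in 5 of 5 tumors, and the part of the members' lower depth in that share was not tested.

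**Figure D4:**
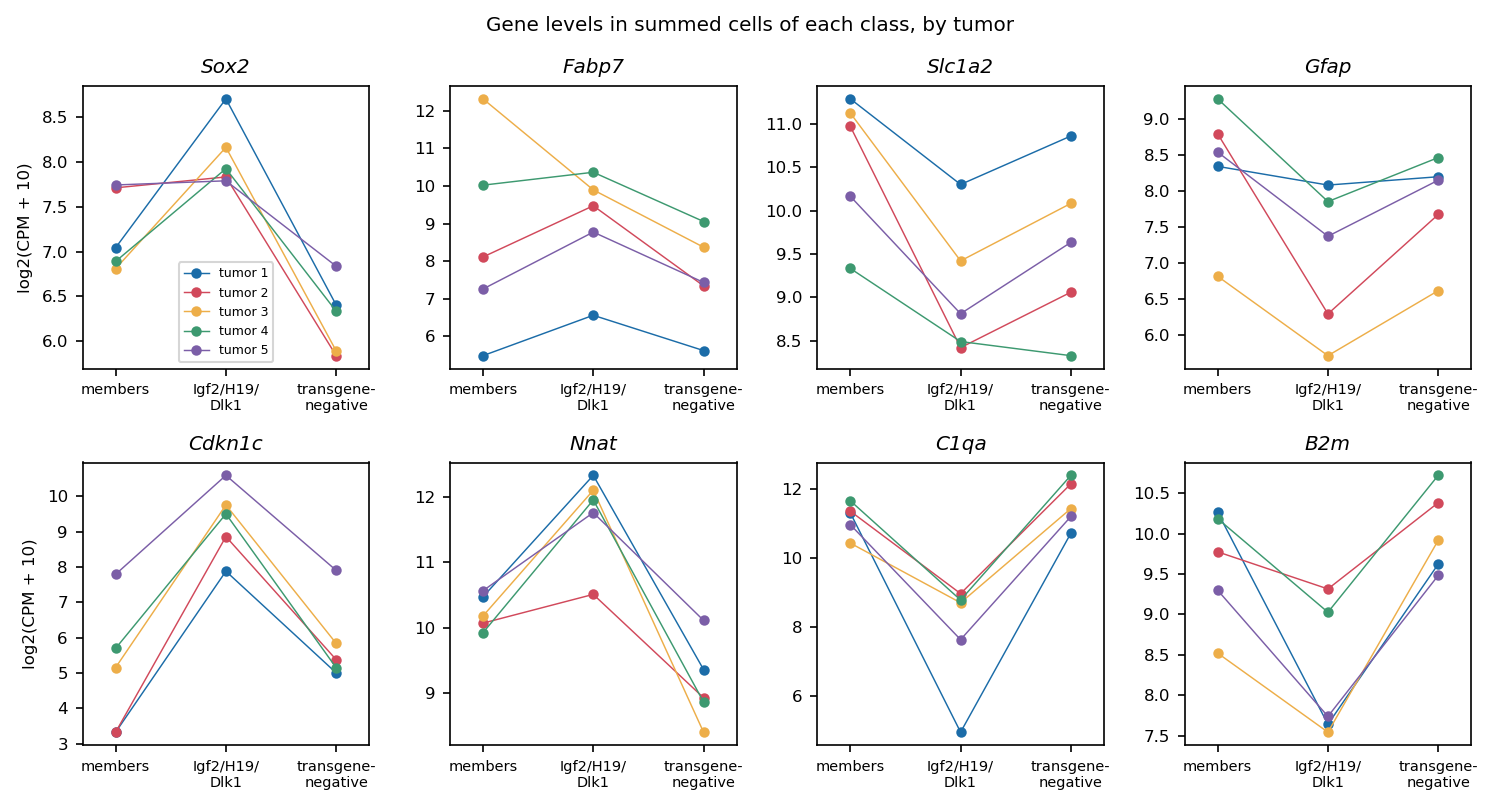
Level of 8 genes, as log2(CPM + 10), in summed cells of members, Igf2-H19-Dlk1 cells and transgene-negative barcodes; each point is 1 tumor and lines join the classes of a tumor. Slc1a2, Gfap, C1qa and B2m are higher, and Cdkn1c and Nnat lower, in members than in Igf2-H19-Dlk1 cells of every tumor, and the high Fabp7 point of tumor 3 rests on 1 cell.

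The radial glia list moved in no single direction. Of 7 genes tested, Ptprz1, a receptor phosphatase, was higher by 0.77 (adjusted p = 0.0297, edgeR) and Hes5, a Notch effector, was lower with a difference of -2.32 (adjusted p = 0.00186, edgeR). Sox2, Fabp7, Slc1a3 (0.77), Nes (-0.57) and Vim (0.03) did not pass. Among other factors of the progenitor state, Sox4 (-1.44) was lower, and Hopx, a homeodomain protein of outer radial glia and astrocytes, was higher by 1.75. Sox9, a glial fate factor, differed by -0.58 and did not pass (adjusted p = 0.230).

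Genes of the G1 cell cycle machinery were lower in members over all cells, although both classes were gated as non-cycling. With cells of other panels left out, as described below, none of 5 tested passed. Of 6 tested of the 12 listed, 4 were lower and 1 higher. Ccnd1 (cyclin D1, a gene linked to the fusion) was at 52.3, 76.7, 426 and 88.6 CPM in members and at 183, 694, 653 and 319 CPM in Igf2-H19-Dlk1 cells, a difference of -1.33 ± 0.32 (SE) on the log2 scale (adjusted p = 0.0137, edgeR). Members were the lower class in each tumor. Ccnd2 (-0.82), Ccnd3 (-1.56) and Cdk4 (-1.33), the D-type cyclins and their kinase, were also lower, and Cdkn1a, the inhibitor p21, was higher by 1.27. Of the other genes linked to the fusion, L1cam, a cell adhesion molecule used as a marker of this ependymoma, was too sparse for the test, at 52.3, 33.3, 0, 0 and 34.1 CPM in members of tumors 1 to 5 and at 0 to 3.38 CPM in Igf2-H19-Dlk1 cells. The member values rest on 9 UMIs in 9 of 181 cells. With member floors of 52.3, 99.9, 76.7, 25.1 and 20.4 CPM, no difference is read from them. Transgene-negative barcodes held 1.81 to 46.4 CPM of L1cam. None of 8 immediate early genes, 6 heat shock genes and 6 hypoxia and glycolysis genes tested passed (edgeR).

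A pair of imprinted genes outside the rule was lower in members. Cdkn1c (ENSMUSG00000037664), the imprinted CDK inhibitor p57, was at 0 (floor 52.3), 25.6, 41.8 and 211 CPM in members of tumors 1, 3, 4 and 5. Igf2-H19-Dlk1 cells held 225, 852, 714 and 1532 CPM, with no overlap, and the difference was -3.38 ± 0.36 (SE) on the log2 scale (adjusted p = 2.03e-05, edgeR). In tumor 2, outside the fit, members held 0 and Igf2-H19-Dlk1 cells 454 CPM. Nnat, an imprinted gene of the developing brain, was at 1411, 1150, 961 and 1506 CPM against 5142, 4388, 3958 and 3460 CPM, a difference of -1.54 ± 0.23 (SE; adjusted p = 0.000299, edgeR). Of 6 imprinted genes tested, these 2 were lower and none was higher. Peg3 (0.05) and the noncoding RNAs next to Dlk1, Meg3 (0.57) and Rian (0.49), did not pass.

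The decreases near H19 were unequal along chromosome 7. In the mm10 build H19 lies at chr7:142575529-142578143 on the minus strand. Tnnt3 (chr7:142498836-142516009), which encodes a skeletal muscle troponin and lies 59520 bp from H19, had the largest of the 10 decreases named here, at -3.86 ± 0.40 (SE; adjusted p = 2.03e-05, edgeR). Its level was 17.4, 102, 25.1 and 0 CPM in members of tumors 1, 3, 4 and 5 and 141, 1615, 501 and 11.6 CPM in Igf2-H19-Dlk1 cells, so it was low in both classes of tumor 5, where the floor of members was 20.4 CPM. Cdkn1c (chr7:143458339-143461050) lies 880196 bp from H19 on the other side. Within 1 Mb of H19, Ctsd, a lysosomal protease, was higher by 2.12 and the tetraspanin gene Cd81 by 0.87, and Mrpl23, Kcnq1ot1 and Nap1l4 did not pass. Near Dlk1 (chr12:109452823-109463336), Begain was lower (-1.30, adjusted p = 0.0169, edgeR), and Meg3, Rian, Yy1 and Ppp2r5c did not pass.

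Further genes were among the decreases of lowest p. Mfap4 (-1.91) and Mfap2 (-1.99) encode proteins of elastic microfibrils, and Mdk (-1.69) the growth factor midkine. The list of extracellular matrix and mesenchymal genes went the other way, with 3 higher (Sparc, Col4a1 and S100a6) and none lower of 4 tested. Sparc, a matrix glycoprotein gene, was at 1150, 715, 1689 and 1002 CPM in members and at 359, 129, 199 and 290 CPM in Igf2-H19-Dlk1 cells of tumors 1, 3, 4 and 5 (2.47 ± 0.26, SE; adjusted p = 2.03e-05, edgeR). Transgene-negative barcodes of these tumors held 1052, 901, 2019 and 1175 CPM of Sparc. Ckb (-1.40), brain creatine kinase, fell from 11268, 17078, 23941 and 15534 CPM in Igf2-H19-Dlk1 cells to 3676, 3398, 10776 and 5985 CPM in members, with no overlap. Aif1l (-1.95), H2afy (-1.64, a macroH2A histone) and Ostc (-1.43, an oligosaccharyltransferase subunit) followed. Of the 92 genes lower in members, 91 were lower in each of the 4 tumors. Of the 198 higher genes, 152 were higher in each. The blocked test favors genes with the same sign in every tumor, so these counts are a description. They were not compared with the counts over all genes tested. Tnnt3 was counted as lower in tumor 5, where members held 0 UMIs. The floor of 20.4 CPM there lay above the 11.6 CPM of Igf2-H19-Dlk1 cells, so no decrease could be shown.

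MHC class I genes were higher in members over all cells. B2m, the shared light chain, was at 1220, 358, 1154 and 620 CPM in members of tumors 1, 3, 4 and 5 and at 190, 177, 512 and 204 CPM in Igf2-H19-Dlk1 cells, a difference of 1.80 ± 0.27 (SE; adjusted p = 0.000410, edgeR). The 4 genes tested were all higher, with H2-D1 at 1.38, H2-K1 at 1.25 and Psmb8, an immunoproteasome subunit, at 1.39. Microglia genes moved with them, as did the vascular gene Cldn5 (2.07), the oligodendrocyte genes Mbp (1.08) and Mobp (1.44) and the neuronal gene Snap25 (1.73). Among cells of 2000 to 8000 UMIs the sign turned for Mbp (-0.74, adjusted p = 0.421) and Mobp (-0.36, adjusted p = 0.952, edgeR).

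The comparison was repeated without any cell that met an immune, vascular, fibroblast, erythroid, neuron or oligodendrocyte panel. This choice of tumors was added after seeing the data. It left 68 members (8, 4, 15 and 41 in tumors 1, 2, 4 and 5, and none in tumor 3) with 142704 UMIs, and 892 genes could be tested. Of these, 74 (8.3%) were higher and 40 (4.48%) lower (edgeR). Against Igf2-H19-Dlk1 cells 5 of 6 astrocyte genes tested were higher. S100b did not pass (0.30, adjusted p = 0.655, edgeR) and Agt was not among the genes tested. This fit holds other tumors than the fit over all cells, and the difference between them was not tested. Its p-values rest on 4 to 41 members per tumor and may understate the spread between tumors. Slc1a2 was higher by 2.38 (4113, 4417, 738 and 1819 CPM in members, against 988, 341, 381 and 413 CPM), Gja1 by 2.80, Gfap by 2.48, Slc4a4 by 2.32 and Aqp4 by 2.17. Aqp4 in tumor 1 went the other way, with 61.4 CPM from 1 UMI in members and 336 CPM in Igf2-H19-Dlk1 cells. Transgene-negative barcodes chosen in the same way had high levels too, with 3348, 804, 1603 and 1134 CPM of Slc1a2 in tumors 1, 2, 4 and 5, above members in tumor 4. Their Gfap was 456, 161, 1646 and 403 CPM, against 859, 697, 1159 and 611 CPM in members. Slc1a3, the glutamate transporter of radial glia and astrocytes (1.60), Ptprz1 (1.39) and the matrix gene Sparc (1.68) were higher too. The oligodendrocyte gene Mbp, the only one of its list tested, was also higher, by 1.81 (adjusted p = 1.8e-07, edgeR). Its source was not tested.

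Cdkn1c was lower among these 68 cells as well (difference -3.35, adjusted p = 1.12e-12, edgeR). Its level was 42.1 and 171 CPM in members of tumors 4 and 5 against 697 and 1683 CPM in Igf2-H19-Dlk1 cells. In tumors 1 and 2 members held 0 UMIs, with floors (3 counts) of 184 and 349 CPM, against 158 and 465 CPM, so tumor 1 could show no decrease at this depth. That of Nnat did not pass (-0.60, adjusted p = 0.0935), nor did any of the 5 G1 genes tested. Ccnd1 (-0.83, adjusted p = 0.0935), Cdk4 (-1.06, adjusted p = 0.0520), Ccnd2 (-0.43, adjusted p = 0.486) and Ccnd3 (-0.67, adjusted p = 0.209) were among them. Neither of the 2 MHC class I genes tested passed, with B2m at -0.01 (adjusted p = 0.990) and H2-K1 at 0.36 (adjusted p = 0.615). Sox2 (0.17), Fabp7 (-0.23) and Vim (0.01) did not pass. Fos (-1.18, adjusted p = 0.0395) and Jun (-1.14, adjusted p = 0.0256), immediate early transcription factor genes, were lower in members here, 2 of 5 tested.

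**Figure D5:**
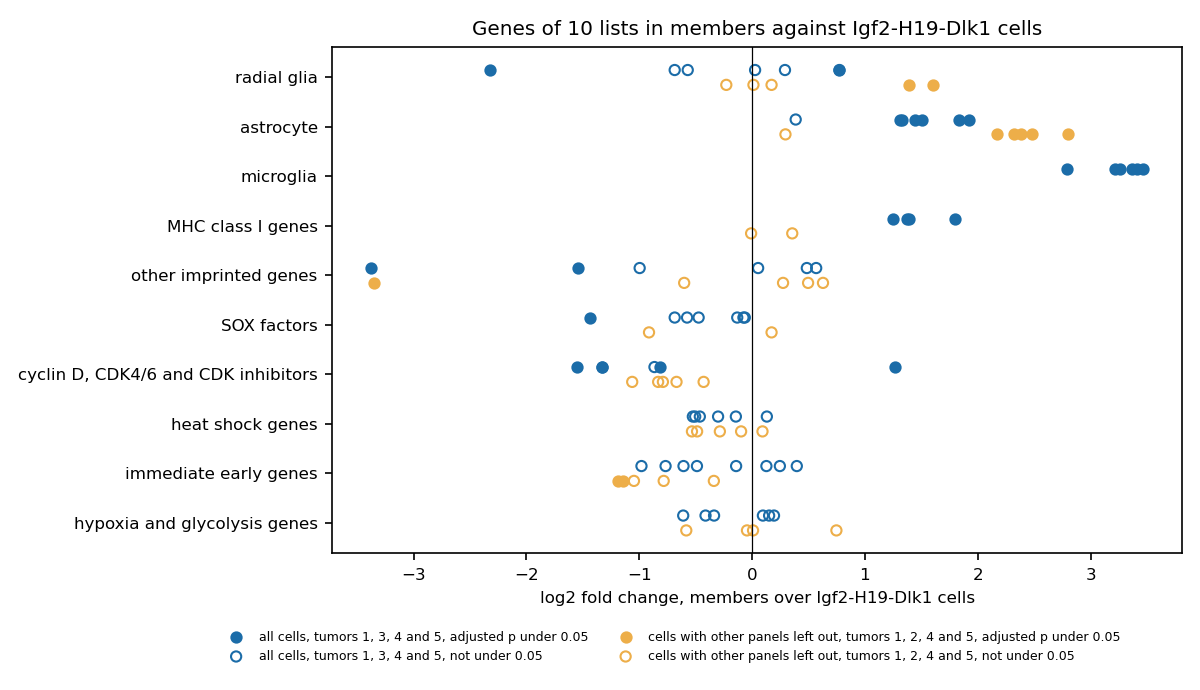
Difference between members and Igf2-H19-Dlk1 cells (x axis, log2 fold change) for the tested genes of 10 lists; blue points use all cells and yellow points leave out cells with other panels, and filled points have an adjusted p under 0.05. Astrocyte genes lie between 1.31 and 1.92 in blue and between 2.17 and 2.80 in yellow where filled, MHC class I genes lie near 0 in yellow, and Cdkn1c lies at -3.38 and -3.35.

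Few genes separated members from the transgene-negative barcodes of their own tumors. In tumors 1, 3, 4 and 5, 5791 genes were tested, and 0 were higher in members (0% of genes tested, edgeR), where 189 were higher at an unadjusted p under 0.05 and DESeq2 also called 0. Other settings called 5 higher genes without tumor 4, 5 with every tumor and 9 at 2000 to 8000 UMIs per cell. In the other direction 8 genes were lower (0.138%), and 272 at an unadjusted p under 0.05. Of the 8, Cldn11 is in the oligodendrocyte list, Cldn5 in the endothelial list and Apod in the fibroblast list. Trf, transferrin, was at 157, 179, 109 and 116 CPM in members of tumors 1, 3, 4 and 5 and at 661, 479, 330 and 246 CPM in transgene-negative barcodes, with no overlap (difference -1.71 ± 0.29, SE; adjusted p = 0.0230, edgeR). Cldn11 (-3.06), a myelin claudin, Apod (-1.88), apolipoprotein D, Cldn5 (-2.0), an endothelial claudin, Pglyrp1 (-2.07), Palmd (-3.04) and Ifi27l2a (-1.58) were lower too. Leaving out tumor 1 left 0 calls and leaving out tumor 4 gave 44.

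The radial glia list gave no call in this comparison. Of its 8 genes 7 were tested, with a median difference of 0.82 beside -0.05 over all genes. Sox2 differed by 0.70 (adjusted p = 0.512), Slc1a3 by 0.82 (adjusted p = 0.337), Ptprz1 by 0.84 (adjusted p = 0.385), Pax6 by 1.08 (adjusted p = 0.638), Nes by 0.05 (adjusted p = 0.994) and Vim by -0.46 (adjusted p = 0.751, edgeR for each). Fabp7 differed by 1.25 (adjusted p = 0.444), but it was lower in members in tumor 1 (34.8 against 39.3 CPM) and tumor 5 (143 against 163 CPM), and in tumor 3 it stood at 5085 against 321 CPM with 1 cell holding 174 of 199 UMIs. The astrocyte list gave no call either, with 8 genes tested and a median difference of 0.53. Slc1a2 differed by 0.56 (adjusted p = 0.612), Gja1 by 0.72 (adjusted p = 0.513), Aqp4 by 1.05 (adjusted p = 0.383) and Gfap by 0.32 (adjusted p = 0.841, edgeR for each). Cdkn1c, at -0.23 (adjusted p = 0.927), and Ccnd1, at -0.29 (adjusted p = 0.880), did not pass, and neither did Nnat (0.90, adjusted p = 0.273). Cdkn1c stood at 22.0, 31.5, 47.0, 25.4 and 229 CPM in transgene-negative barcodes of tumors 1 to 5, near its values in members. The extracellular matrix list (9 tested) and the MHC class I list (7 tested) gave no call, with median differences of -0.36 and -0.49. Sparc differed by -0.36 (adjusted p = 0.827) and B2m by -0.49 (adjusted p = 0.781, edgeR for each). With cells of other panels left out, 1 of 807 genes was called (edgeR).

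Against cycling fusion-allele cells, tumors 4 and 5 alone had 20 cells in both classes. Of 11545 genes tested, 756 were higher in members (6.55%) and 873 lower (7.56%; edgeR). Of the 15 listed replication genes outside the rule, such as Rrm2, Pcna and the Mcm genes, 14 were lower, which follows from the gate on mitotic genes and is given as a description. Cdkn1c was lower here as well, at 41.8 and 211 CPM in members against 500.1 and 2144 CPM in cycling cells (-3.55 ± 0.32, SE, edgeR). Slc1a2 was higher by 2.11 and Gfap by 1.96, and 6 of the 8 astrocyte genes tested were higher. All 8 microglia genes were higher as well, with C1qa at 3.99. Ccl4, a chemokine, led the list with a difference of 5.43, but 120 of its 131 UMIs in tumor 4 and 25 of 34 in tumor 5 came from 1 cell each. Sox2 (-0.57, adjusted p = 0.282) and Fabp7 (-0.53, adjusted p = 0.208) did not pass. Without the tumor block edgeR called 0 genes and with the block DESeq2 called 524, so these calls rest on the pairing of classes within 2 mice. So few mice give little measure of the spread between mice, and the counts, SE and p-values of this fit are a description.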

How the data were processed

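The authors counted UMIs with Cell Ranger on the mm10 build. The matrix headers state version 6.1.2 and the submitters' processing notes 7. The deposited files hold raw UMI counts, whole numbers for every barcode and gene, not scaled in any way. In control 4 the feature list is shorter than the matrix, so the feature order of the remaining libraries was applied to it. Groups and replicate numbers came from the sample titles. Of the 10000 deepest barcodes of a library, those with 200 to 6000 genes and under 15% mitochondrial UMIs were kept. The tumor libraries held 14967680 to 69411387 UMIs, and all pairs of tumors differed beyond sampling noise. No cells were clustered and no doublets were removed for the main values; Scrublet scores in Scanpy 1.11.5, at 0.8% per 1000 kept barcodes, were an alternative.

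Members, comparison classes and gene lists were chosen with earlier results of these data known. UMI counts were summed per tumor and class and fitted by quasi-likelihood in edgeR 4.0.16 under R 4.3.3, using TMM factors and filterByExpr, with the tumor as a block because both classes come from the same mouse. Tumors with at least 20 cells in both classes entered. Genes of the rule and mitochondrial genes were counted in library sizes and left out of the tested genes. Adjusted p-values are Benjamini-Hochberg values over all genes tested, with a threshold of 0.05. The tests were checked on simulated counts. Named genes come from the lists or are, per comparison and direction, the 10 of lowest p that passed and had the same sign in every tumor. Genes within 1 Mb of H19 and Dlk1 were added after their values were seen. Some genes of these lists are not reported here. Coordinates are those of GENCODE on mm10. Intervals are exact at 95% and the floor for 0 UMIs is 3 counts.

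The alternatives were no block, DESeq2 1.42.0, RLE size factors, no filter on low counts, each tumor left out, every tumor with a cell in both classes, a mitochondrial limit of 10%, at least 500 genes, 5000 or all barcodes, at least 2 allele UMIs, no use of IRES, doublets removed, thinning to 1500 UMIs, cells of 2000 to 8000 UMIs, cells with other panels left out, and comparators of at least 1 or 10 UMIs of Igf2, H19 and Dlk1. Chosen after seeing the data were the fits of any tumor with other panels left out, with at least 2 allele UMIs and with 2000 to 8000 UMIs.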

Additional observations from a re-analysis of the deposited data

Results flagged for a closer look

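Of 25 measures of members compared over the 5 tumors, 5 had a tumor whose gap to the nearest other tumor exceeded Dixon's limit (0.71 of the range). This is a description and no test. The 25 hold the number and shares of members, which the rule set. They also hold 5 panels met by no member, which could give no outlier. Tumor 4 had the highest share with the radial glia panel, at 71.0% against 25.3% to 38.5%. With all deposited barcodes it was 27.8%, below tumors 1 to 3. Tumor 4 was again highest with 5000 barcodes (75% of 8 members) and after thinning to 1500 UMIs (38.5%). Of its 96 thinned members, 77 held Igf2, H19 or Dlk1 UMIs at full depth. Tumor 4 also had the highest share with the OPC panel (markers of oligodendrocyte precursors), at 19.4% against 0% to 3.85%. Its members were also the deepest, with a median of 3934 UMIs. Tumor 3 stood apart in the erythroid panel, at 92.6% against 0% to 2.53%, and in Fabp7, at 5085 CPM against 34.8 to 1028 CPM, of which 1 cell held 174 of 199 UMIs. Tumor 5 had the most members, 79 cells against 18 to 31.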

How the results depend on the processing

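The number of members was 82 with 5000 barcodes, 640 with all deposited barcodes, 11 with at least 2 allele UMIs, and 102 to 163 with a tumor left out, lowest without tumor 5. Their radial glia share was 65% with at least 2 allele UMIs and 16.8% after thinning to 1500 UMIs, and the microglia share 0% with at least 2. Thinning to 1500 UMIs gave 14, 23, 4, 96 and 42 members in tumors 1 to 5, of which 3, 14, 1, 77 and 14 held Igf2, H19 or Dlk1 UMIs at full depth. Against Igf2-H19-Dlk1 cells, 290 calls became 172 to 297 with a tumor left out, 59 without the tumor block, 940 (333 higher, 607 lower) without a filter, 595 with 2000 to 8000 UMIs, and, in the added fits of any tumor, 114 with other panels left out, 11 with at least 2 allele UMIs and 132 with 2000 to 8000 UMIs. Against cycling cells, 1629 calls became 0 without the block, 524 with DESeq2, 591 with any tumor and 937 with 2000 to 8000 UMIs. Against transgene-negative barcodes, 8 calls became 0 to 44 with a tumor left out, 0 without the block, 3 with DESeq2, 59 without a filter, 31 with any tumor, 0 at a mitochondrial limit of 10%, 33 with 2000 to 8000 UMIs and 1 with other panels left out, of which 0 to 5, 0, 0, 3, 5, 0, 9 and 0 were higher in members. Against Igf2-H19-Dlk1 cells the sign turned for Mfap4 (0.17, at least 2 allele UMIs), Mobp (-0.36) and Mbp (-0.74, and -0.075 with any tumor) at 2000 to 8000 UMIs and B2m (-0.0084, other panels left out), and against cycling cells for Mbp (-0.00596, 2000 to 8000 UMIs). The causes were not tested. Of the named genes' values under all alternatives, 687 kept direction and call against Igf2-H19-Dlk1 cells and 146 lost the call, 663 and 229 against cycling cells, and 55 and 41 against transgene-negative barcodes. At 20 cells per class the fits with at least 2 allele UMIs and with other panels left out could not be made, nor could cycling cells be compared with a tumor left out.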
